A study of Mus musculus with 22 samples.

Results

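MHC and antigen presentation genes were examined in hnRNP A1 CLIPseq of mouse spinal cords, as the 10 genes H2-Aa, H2-Ab1, H2-Eb1, Cd74, H2-K1, H2-D1, B2m, Tap1, Tap2 and Psmb8. In CLIPseq, UV light links proteins to the RNA they touch, an antibody then pulls down 1 of these proteins, and the RNA held by it is sequenced. A footprint is a genomic stretch that was kept after sites in the input or in the control IgG had been removed. A footprint belonged to a gene when it overlapped the annotated span of that gene by at least 1 nt. By this rule 115 of 136207 footprints fell in the 10 genes, and all 10 genes carried a footprint in at least 3 of the 10 mice.

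All mice were wild-type C57Bl/6 females (C57BL/6N from Charles River). In experimental autoimmune encephalomyelitis (EAE) a myelin peptide provokes an immune attack on the spinal cord, and here 7 mice had been immunized with complete Freund’s adjuvant carrying the peptide MOG(35-55), together with pertussis toxin, and were taken 15 days after onset of clinical signs. The treatment protocol gives 12 weeks as the age at immunization and the design text gives 8 weeks. The 3 mild EAE mice had clinical scores of 1.5 (mouse 3), 1.5 (mouse 4) and 1 (mouse 7), and the 4 severe EAE mice had scores of 2.5 (mouse 1), 3 (mouse 2), 2.5 (mouse 5) and 3 (mouse 6). The 3 naïve mice were healthy and age-matched, so that adjuvant and toxin differed between naïve and EAE mice together with the peptide. Each mouse gave 1 anti-hnRNP A1 immunoprecipitation (clone 9H10 in the labels) and counted as 1 replicate.

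MHC class II molecules present peptides of taken-up proteins to CD4+ T cells. In the nervous system they are made chiefly by microglia, infiltrating macrophages and other professional antigen-presenting cells, and interferon gamma induces them. MHC class I molecules present peptides from inside the cell to CD8+ T cells and are made by most cell types, at low levels in the healthy nervous system. The nuclear protein hnRNP A1 binds pre-mRNA and mRNA, regulates splicing, and prefers RNA that holds UAG.

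The lists differed widely in length, and this touches every count below. Naïve mice had 17119 to 17494 footprints and mild EAE mice 9751 to 24433. In severe EAE, mouse 5 had 31870 footprints, whereas mouse 1 had 2670, mouse 6 had 673 and mouse 2 had 209. The files give no read count for a footprint, so the depth behind each one is unknown, and an absent footprint says only that none was kept. Whole spinal cord was used, so fewer cells of a type and less RNA per cell cannot be told apart. Footprints carry no strand, so B2m and Patl2, H2-Eb1 and Gm20513, Tap1 and Psmb9, Cd74 and Mir5107, Psmb8 and Gm20496, and Tap2 with Gm20496 and Gm15821 cannot be separated where their spans overlap.

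More of the 10 genes carried a footprint in each mild EAE mouse than in each naïve mouse. Naïve mice 1, 2 and 3 had a footprint in 2, 4 and 3 of the genes. Mild EAE mice 3, 4 and 7 had one in 9, 8 and 8 of them. Severe EAE mice 1, 2, 5 and 6 had one in 3, 0, 10 and 3. The mild and naïve ranges did not overlap, while the severe EAE mice spanned from none to all of the genes. Over all annotated genes, naïve mice 1, 2 and 3 had a footprint in 4912, 6478 and 5440. Mild EAE mice 3, 4 and 7 had one in 5163, 3813 and 7069 genes, so these ranges overlapped. Severe EAE mice 1, 2, 5 and 6 had one in 1512, 145, 8298 and 549 genes. The mean number of the 10 genes that were footprinted was 3 ± 1 (SD, n = 3) in naïve mice, 8.33 ± 0.577 (SD, n = 3) in mild EAE and 4 ± 4.24 (SD, n = 4) in severe EAE. No p is given for these totals, since the genes were chosen with earlier results of these data known.

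**Figure D1:**
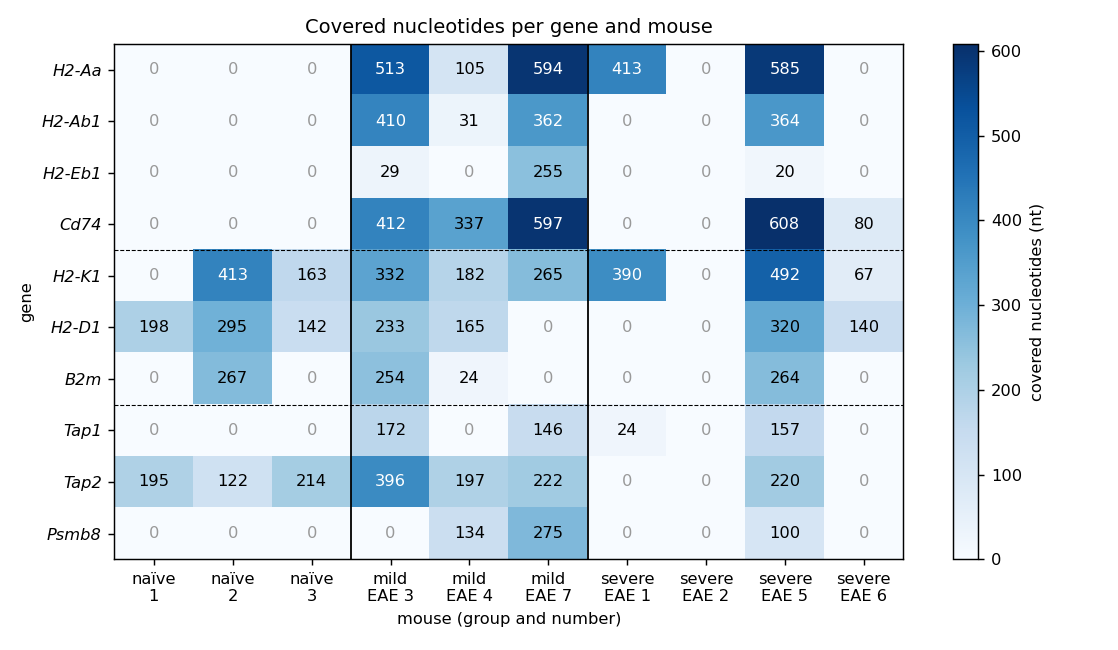
Covered nucleotides (nt) of each of the 10 genes (rows) in each of the 10 mice (columns, by group and mouse number), with each value printed in its cell and darker blue for more nucleotides. H2-Aa, H2-Ab1, H2-Eb1, Cd74, Tap1 and Psmb8 are at 0 in all 3 naïve mice, and severe EAE 2 is at 0 throughout.

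The same values were set against the length of each list. Footprints in the 10 genes made up 0.0175% of the footprints of naïve 1 (95% exact binomial interval 0.00361% to 0.0512%), 0.0974% of naïve 2 (0.0567% to 0.156%) and 0.0171% of naïve 3 (0.00354% to 0.0501%). The share was 0.158% (0.1% to 0.237%) in mild EAE 3, 0.113% (0.0563% to 0.202%) in mild EAE 4 and 0.0859% (0.0532% to 0.131%) in mild EAE 7. The interval of naïve 2 overlapped all of these. In severe EAE they made up 0.225% (0.0825% to 0.488%) in mouse 1, 0.0847% (0.0558% to 0.123%) in mouse 5 and 0.594% (0.162% to 1.51%) in mouse 6. Severe EAE 2 had 0 of 209 footprints, which allows a share of up to 1.44% by the rule of 3 counts and 1.75% by the exact interval. These intervals cover counting error only. As covered nucleotides per 1000000 footprint nucleotides of the mouse, the 10 genes together held 177 in naïve 1, 534 in naïve 2 and 237 in naïve 3. Mild EAE 3, 4 and 7 held 1776, 1016 and 909 on this scale. Severe EAE 1, 2, 5 and 6 held 2505, 0, 756 and 3777. On this scale every EAE mouse except severe EAE 2 thus lay above every naïve mouse. By share of footprints, however, naïve 2 (0.0974%) lay above mild EAE 7 (0.0859%) and severe EAE 5 (0.0847%). The values of severe EAE 1 and 6 rest on 6 and 4 footprints in the 10 genes.

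**Figure D2:**
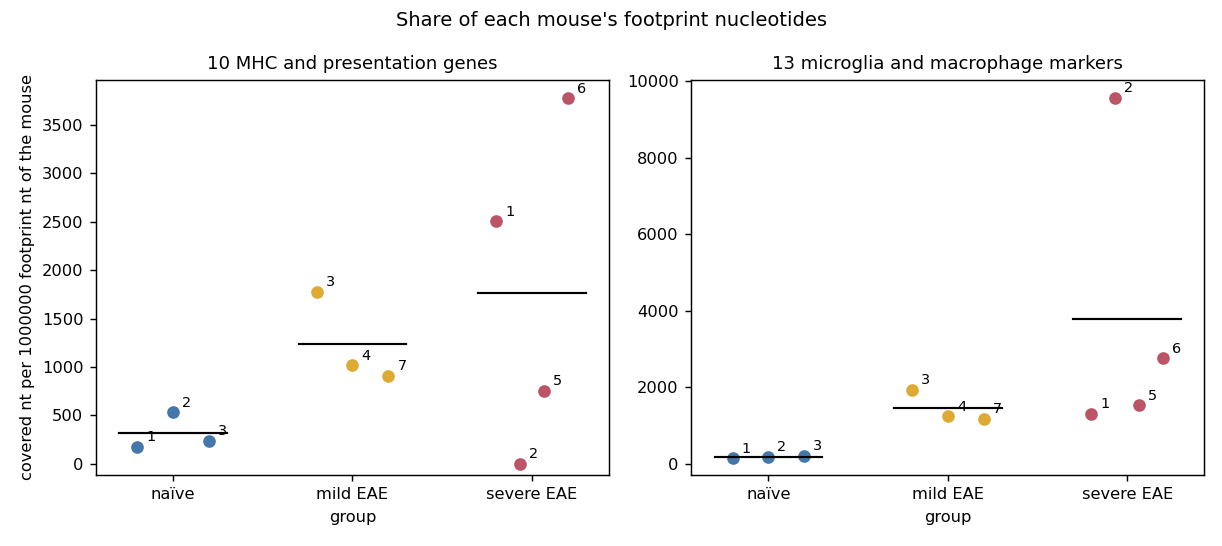
Covered nucleotides per 1000000 footprint nucleotides of the mouse (y axis) by group (x axis), for the 10 MHC and antigen presentation genes (left) and 13 microglia and macrophage markers (right), with 1 point per mouse labelled by its number and a line at the group mean. On the left the naïve mice lie between 177 and 534, the mild EAE mice between 909 and 1776, and severe EAE 2 lies at 0. The y axes of the panels differ in range.

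The class II genes and Cd74 were footprinted in EAE mice and in no naïve mouse. H2-Aa encodes the alpha chain of the class II molecule I-A, H2-Ab1 encodes its beta chain, H2-Eb1 encodes the beta chain of I-E, and Cd74 encodes the invariant chain that occupies the peptide groove of class II molecules until they reach the endosome. Each of the 4 genes had a footprint in at least 2 of the 3 mild EAE mice. In all, 6 of the 10 genes (these 4 with Tap1 and Psmb8) had a footprint in at least 3 mice and in no naïve mouse, a pattern seen in 561 of 6735 genes tested (8.33%). Such genes were tested only because EAE mice carried them, so that this count is a description.

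H2-Aa (chr17:34282744-34287823, minus strand, GRCm38) had 0 covered nucleotides in each naïve mouse. It had 513 nt in mild EAE 3, 105 nt in mild EAE 4 and 594 nt in mild EAE 7. In severe EAE it had 413 nt in mouse 1, 585 nt in mouse 5 and 0 nt in mice 2 and 6. Thus all mild EAE mice lay above all naïve mice, while the severe EAE mice overlapped them. Its 16 footprints all had their midpoints in exons, 12 in coding sequence and 4 in the 3′ untranslated region (UTR). Exon 2 was footprinted in 4 mice, mild EAE 3 and 7 and severe EAE 1 and 5, and the stretch of it common to at least 3 of them carried no UAG.

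Cd74 (chr18:60803848-60812652, plus strand) had 0 nt in each naïve mouse. It had 412, 337 and 597 nt in mild EAE mice 3, 4 and 7, with 608 nt in severe EAE 5, 80 nt in severe EAE 6 and 0 nt in severe EAE 1 and 2. All mild EAE mice again lay above all naïve mice. Its 17 footprints were exonic, with 11 midpoints in coding sequence, 2 in the 5′ UTR and 4 in the 3′ UTR. The footprints of severe EAE 5 and severe EAE 6 in exon 3 were the same 80 nt, from one end of that exon to the other. Of the 17 footprints, 13 had at least 1 end exactly on an annotated exon boundary.

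H2-Ab1 (chr17:34257689-34269419, plus strand) had 0 nt in each naïve mouse and 410, 31 and 362 nt in mild EAE mice 3, 4 and 7. In severe EAE it had 364 nt in mouse 5 and 0 nt in the other mice. The start of exon 3 was footprinted in all 3 mild EAE mice and in severe EAE 5, and in each of these 4 mice the footprint began on the same nucleotide, the exon boundary. H2-Eb1 (chr17:34305867-34316674, plus strand) had 0 nt in the naïve mice, 29, 0 and 255 nt in mild EAE mice 3, 4 and 7, and 20 nt in severe EAE 5 alone of the severe EAE mice. The mild EAE mice therefore overlapped the naïve mice for H2-Eb1. Its exon 3 was entered in the same way, from the exon boundary, in mild EAE 3, mild EAE 7 and severe EAE 5.

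The following stretches of these 3 genes were each covered in at least 3 mice and are shown because the EAE mice shared them and no naïve mouse had a footprint there. They are GRCm38 sequence on the strand of the gene, where any TAG (UAG in the RNA) would stand in capitals. None of them holds one.
H2-Aa exon 2, chr17:34284355-34284472: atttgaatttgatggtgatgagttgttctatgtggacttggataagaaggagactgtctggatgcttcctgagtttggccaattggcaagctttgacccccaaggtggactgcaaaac
H2-Ab1 exon 3, chr17:34267336-34267366: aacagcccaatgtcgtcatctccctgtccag
H2-Eb1 exon 3, chr17:34314170-34314189: ttgagcctacggtgactgtg
Of the other footprints in single genes within 10 nt of these lengths, 59.6% (of 17139), 15.1% (of 10663) and 11.7% (of 5906) held TAG on the strand of their gene. These footprints were matched on length only, while the stretches shown are exonic. Intronic footprints held TAG more often than exonic ones (83.8% against 39.5% over all lengths).

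**Figure D3:**
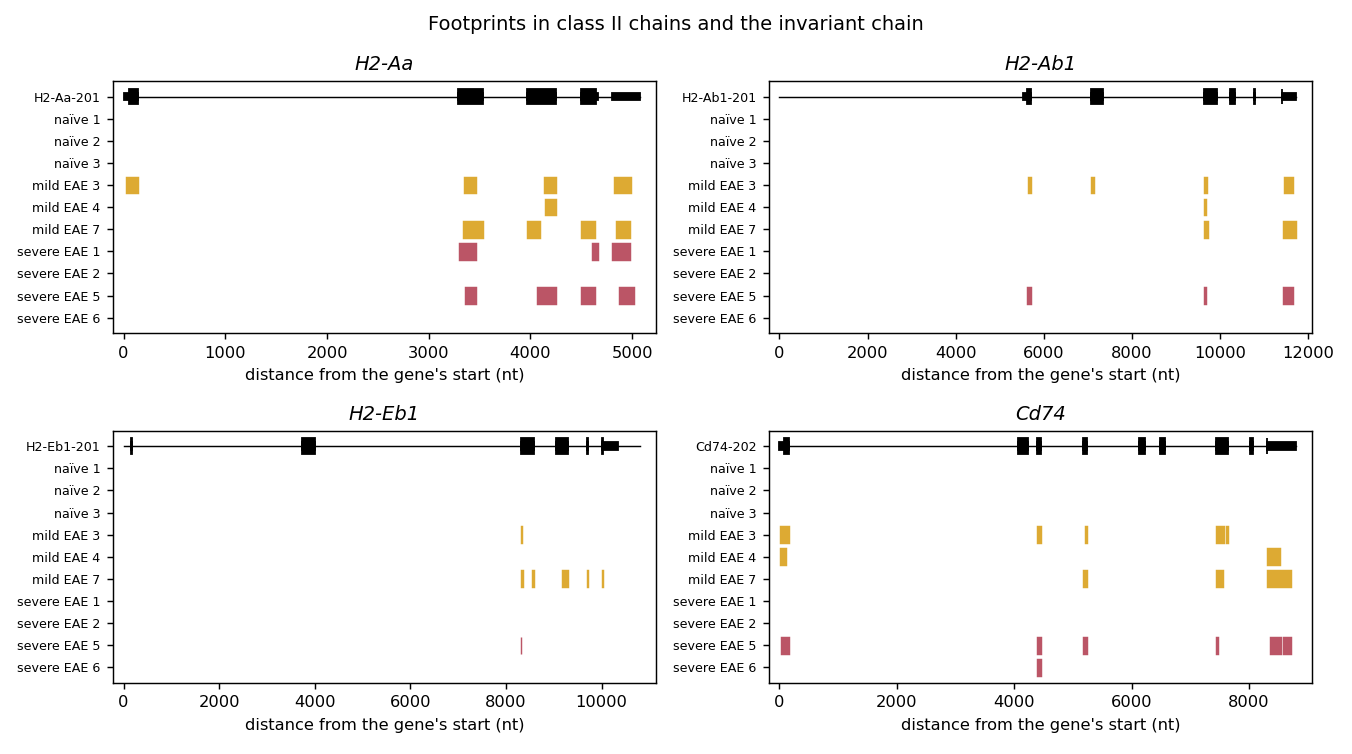
Positions of footprints in H2-Aa, H2-Ab1, H2-Eb1 and Cd74 by distance from the start of the gene (x axis, nt), with 1 row per mouse (blue naïve, yellow mild EAE, red severe EAE) and the transcript with the longest coding sequence on top (tall boxes coding, low boxes untranslated). The footprints sit on exons, and the 3 naïve rows are empty in each panel.

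The class I chains, by contrast, were footprinted in naïve and EAE mice alike. H2-K1 and H2-D1 encode heavy chains of class I molecules and B2m encodes their light chain, beta-2 microglobulin. H2-K1 (chr17:33996017-34000347, minus strand) had 0, 413 and 163 nt in naïve mice 1, 2 and 3, and mild EAE 3, 4 and 7 had 332, 182 and 265 nt. Severe EAE 1, 2, 5 and 6 had 390, 0, 492 and 67 nt. Being present in 8 mice, it was the gene footprinted in the most mice, and its groups overlapped. H2-D1 (chr17:35262730-35267499, plus strand) had 198, 295 and 142 nt in the naïve mice, and mild EAE 3, 4 and 7 had 233, 165 and 0 nt. Severe EAE 1, 2, 5 and 6 had 0, 0, 320 and 140 nt. All 3 naïve mice carried it, and the groups overlapped. B2m (chr2:122147686-122153083, plus strand) had 267 nt in naïve 2 and 0 nt in the other naïve mice, 254, 24 and 0 nt in mild EAE mice 3, 4 and 7, and 264 nt in severe EAE 5 alone among severe EAE mice. Its groups overlapped too.

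Within these 3 genes, footprints of naïve and EAE mice often lay at different places. In H2-K1, the last exon was footprinted over 186 to 332 nt, mostly 3′ UTR, in mild EAE 3, mild EAE 7, severe EAE 1 and severe EAE 5, whereas among naïve mice it held 1 footprint of 20 nt, in naïve 2. In H2-D1, footprints of 144 to 233 nt in the last exon were found in mild EAE 3, mild EAE 4 and severe EAE 5, against footprints of 46 nt in naïve 1 and 21 nt in naïve 2. In B2m, mild EAE 3 and severe EAE 5 had footprints in exon 4, which is 3′ UTR, and the 3 footprints of naïve 2 lay in exons 2 and 3. The start of B2m differed in the same way, with 24 to 29 nt up to the end of exon 1 in mild EAE 3, mild EAE 4 and severe EAE 5 and none in a naïve mouse. Naïve and EAE mice shared coding exon 3 of H2-K1, with footprints in naïve 2, naïve 3, mild EAE 4, severe EAE 1 and severe EAE 5, and 17 nt of exon 3 of H2-D1, in naïve 2 and mild EAE 4. These positions were not tested.

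Sequence shared between class I genes limits these values. Of the 18 footprints of H2-K1, 7 had a further genomic copy (at least 95% identity over at least 90% of the footprint), and of the 17 of H2-D1, 11 had one, most of them in other class I genes such as H2-Q4, H2-Q7 and H2-K2. In naïve 2, short footprints of H2-K1 (20 and 33 nt) and of H2-D1 (21 and 33 nt) had copies in each other’s gene, with a best identity over all copies of 100%, and that mouse had footprints at both places. Reads of identical copies cannot be told apart by alignment. Without the footprints that had a copy, the difference between EAE and naïve means moved from 54.9 to 13.6 nt for H2-K1 and from -89.1 to -29.2 nt for H2-D1. None of the footprints in H2-Aa, H2-Ab1, H2-Eb1, Cd74, B2m, Tap2 or Psmb8 had a further copy, and the 2 footprints of Tap1 that did were 17 and 24 nt long.

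The stretch of H2-K1 exon 3 that at least 3 of the 5 mice shared, and the end of B2m exon 1, are shown as examples from the class I molecule. They are printed as above, and neither holds a TAG.
H2-K1 exon 3, chr17:33999344-33999480, minus strand: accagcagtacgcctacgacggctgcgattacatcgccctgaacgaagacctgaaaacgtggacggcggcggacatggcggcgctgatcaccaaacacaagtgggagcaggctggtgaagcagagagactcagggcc
B2m exon 1, chr2:122147781-122147804, plus strand: tgaccggcctgtatgctatccaga
Of the other footprints in single genes within 10 nt of these lengths, exonic and intronic together, 69.6% (of 20866) and 12.9% (of 7968) held TAG.

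Among the genes of peptide supply, Tap1 and Psmb8 were footprinted in EAE mice alone and Tap2 in all 3 naïve mice. Tap1 and Tap2 form the transporter that carries peptides into the endoplasmic reticulum, and Psmb8 is a catalytic subunit of the immunoproteasome, which cuts many of those peptides. Tap1 (chr17:34187553-34197225, plus strand) had 0 nt in the naïve mice, 172, 0 and 146 nt in mild EAE mice 3, 4 and 7, and 24 and 157 nt in severe EAE mice 1 and 5. Psmb8 (chr17:34197721-34201454, plus strand) had 0 nt in the naïve mice, 0, 134 and 275 nt in mild EAE mice 3, 4 and 7, and 100 nt in severe EAE 5. For both, 1 mild EAE mouse was at 0 with the naïve mice, so the groups overlapped. All 7 footprints of Tap1 and all 5 of Psmb8 had their midpoints in coding exons.

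Tap2 (chr17:34203527-34216321, plus strand) had 195, 122 and 214 nt in naïve mice 1, 2 and 3, 396, 197 and 222 nt in mild EAE mice 3, 4 and 7, and 220 nt in severe EAE 5, with 0 nt in severe EAE 1, 2 and 6. Of its 8 footprints, 7 lay at 1 place in intron 5, 1 in each of these 7 mice, and the stretch was covered in 7 mice, more than any other nucleotide of the 10 genes. The remaining footprint was exon 6 from end to end (198 nt), in mild EAE 3. Tap2 was thus the only member with an intronic midpoint, since the other 107 footprints had theirs in exons.

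The intronic stretch is shown because its sequence sets it apart from the exonic ones above. It is GRCm38 chr17:34209326-34209539 on the plus strand, covered in at least 3 mice throughout, with each TAG in capitals.
Tap2 intron 5: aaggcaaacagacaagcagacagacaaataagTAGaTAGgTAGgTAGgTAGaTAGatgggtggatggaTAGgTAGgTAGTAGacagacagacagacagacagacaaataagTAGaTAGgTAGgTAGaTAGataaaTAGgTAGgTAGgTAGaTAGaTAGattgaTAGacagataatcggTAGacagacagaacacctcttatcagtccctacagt
It held TAG 23 times in 214 nt, and 165 of the 214 nt were marked as repeats in the reference. The 1813 other footprints in single genes within 10 nt of its length were taken exonic and intronic together. Of them, 78.0% held TAG and 2.43% held it at least 23 times. The footprints of 6 mice held all 23, and the shorter footprint of naïve 2 held 15. In all, 36 of the 115 member footprints (31.3%) held TAG, among them all 8 of Tap2 and none of the 7 of H2-Eb1. Over all other footprints in single genes, 39.5% of the exonic ones (median length 94 nt) and 83.8% of the intronic ones (median length 142 nt) held it. A match to 3 letters describes the sequence and is no evidence of a binding site.

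**Figure D4:**
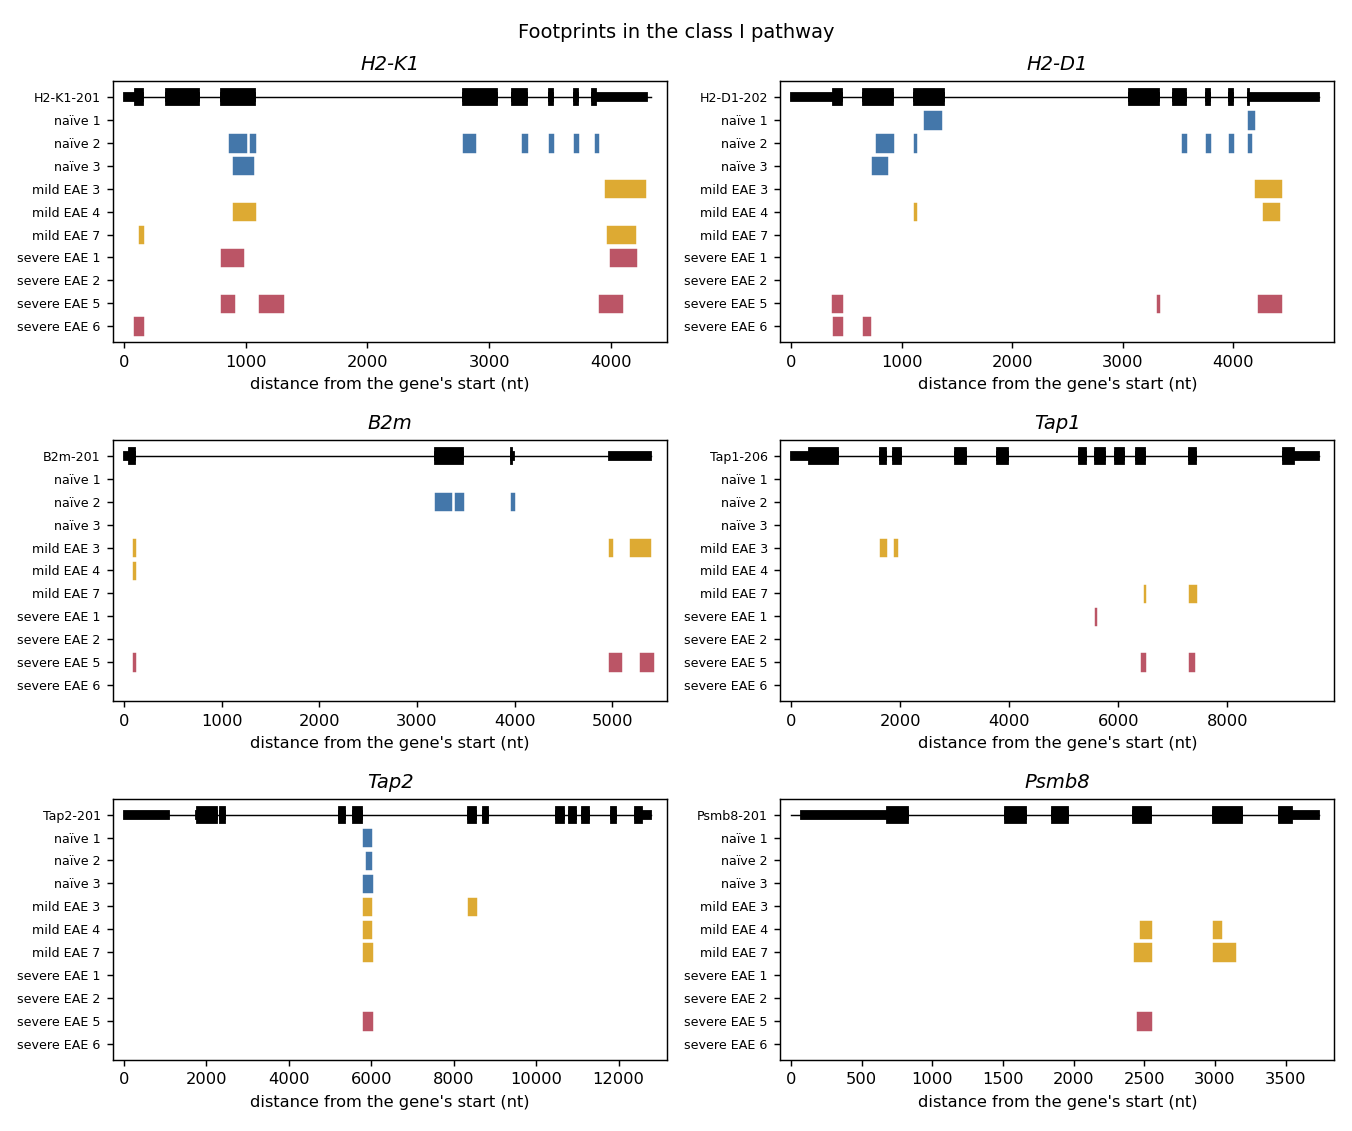
Positions of footprints in H2-K1, H2-D1, B2m, Tap1, Tap2 and Psmb8 by distance from the start of the gene (x axis, nt), with 1 row per mouse (blue naïve, yellow mild EAE, red severe EAE) and the transcript with the longest coding sequence on top (tall boxes coding, low boxes untranslated). In Tap2, 7 mice share 1 intronic place, and in H2-K1 and H2-D1 the wide footprints in the last exon belong to EAE mice.

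Levels of the genes were compared per length, as the percentage of the annotated exonic nucleotides that footprints covered. In mild EAE (n = 3, means ± SD), Cd74 was covered over 26.7% ± 8.02, followed by B2m with 10.8% ± 16.3, H2-Aa with 10.6% ± 6.91, H2-Ab1 with 10.4% ± 8.04 and H2-K1 with 8.84% ± 2.56. Then came H2-D1 with 5.14% ± 4.65, H2-Eb1 with 4.87% ± 7.18, Psmb8 with 4.03% ± 4.07, Tap1 with 1.93% ± 1.69 and Tap2 with 1.75% ± 3.02. Every gene differed from its neighbours in this order by less than the larger of their SDs. In naïve mice (n = 3), B2m had 10.3% ± 17.9, H2-D1 8.21% ± 3.00 and H2-K1 6.54% ± 7.08, and no exonic nucleotide of the other 7 genes was covered. In severe EAE (n = 4), Cd74 stood highest again with 10.2% ± 17.5, from 2 mice, ahead of H2-K1 with 7.99% ± 8.07.

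Each gene was then tested between groups by the difference in mean covered nucleotides, with a two-sided exact permutation test over all splits of the mice and Benjamini-Hochberg adjustment over the 6735 genes that were footprinted in at least 3 mice. For mild EAE against naïve, the smallest p that 3 mice against 3 allow is 0.1, and a gene was called when the groups did not overlap. As described above, 3 of the 10 genes, H2-Aa, H2-Ab1 and Cd74, were higher in every mild EAE mouse than in every naïve mouse, where 353 of the 6735 genes (5.24%) were. The differences in means were 404 nt for H2-Aa, 267.7 nt for H2-Ab1 and 448.7 nt for Cd74, each with an exact p of 0.1 and an adjusted p of 0.92. No member was lower, where 354 of the 6735 genes were. The median difference was 100.3 nt over the 10 genes and 4.67 nt over all genes tested. H2-Aa, H2-Ab1, H2-Eb1, Cd74, Tap1 and Psmb8 had no footprint in a naïve mouse. They could not be lower in EAE mice, so the median is a description. Mild EAE 4 held the fewest footprints of its group, and without it 6 of the genes were higher without overlap (H2-Aa, H2-Ab1, H2-Eb1, Cd74, Tap1 and Tap2), as were 1170 of 6446 genes (18.2%).

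For all EAE against naïve mice, no member passed an exact p of 0.05, and 1 of the 6735 genes (0.0148%) was higher in EAE and 436 were lower at that limit, none with an adjusted p of at most 0.05. H2-Aa averaged 315.7 nt ± 271.4 (SD, n = 7) in EAE, with an exact p of 0.117 and an adjusted p of 0.832. Cd74 averaged 290.6 nt ± 266.1 (SD, n = 7), with an exact p of 0.125 and an adjusted p of 0.832. Both were at 0 in each naïve mouse and present in 5 of the 7 EAE mice. The class I genes showed small differences in either direction, 54.9 nt for H2-K1 (exact p = 0.692), -89.1 nt for H2-D1 (exact p = 0.283) and -11.6 nt for B2m (exact p = 0.75). The sign turned for H2-D1 after scaling to the list (216.9 per 1000000), for B2m on the log2 scale (0.27) and without naïve 2 (77.4 nt), and for H2-K1 without naïve 1 (-41.1 nt). Tap2 differed by -29.1 nt (exact p = 0.742), and by 30 nt without severe EAE 2 and 6. The median difference was 63.1 nt over the 10 genes and -26.3 nt over all genes tested. The members without a footprint in a naïve mouse could not be lower in EAE, so this median too is a description. With severe EAE 2 and 6 left out, H2-Aa alone of the 10 genes passed (442 nt, exact p = 0.0357), where 27 of 6689 genes (0.404%) were higher. With severe EAE 1, 2 and 6 left out, Cd74 passed (488.5 nt ± 135.2, SD, n = 4, with an exact p of 0.0286 and an adjusted p of 0.798) and H2-Aa and H2-Ab1 did not (each exact p = 0.0571). The smallest p that 3 against 4 can reach is 0.0286. In the latter comparison 1 of the 10 genes and 112 of 6569 (1.7%) were higher in EAE. These mice were left out after the data had been seen.

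Severe EAE mice could be compared less well, as 1 of them held nearly all the values. Severe EAE 5 had 27 of the 37 member footprints of its group, and mouse 1 had 6, mouse 6 had 4 and mouse 2 had 0. Against naïve mice, 0 of the 10 genes were higher at an exact p of 0.05, where 1 of 6735 genes (0.0148%) was, and the smallest exact p among the members was 0.143, for Tap2 (-122 nt). Against mild EAE, 0 of the 10 genes were higher and 0 were lower, where 0 (0%) and 124 (1.84%) of the 6735 genes were. All 10 means were lower in severe than in mild EAE, from -276.7 nt for Cd74 to -17.7 nt for H2-D1, as were those of 75.6% of all genes tested. Scaled to the footprint nucleotides of each mouse, 6 of the 10 means were lower, against 73.9% of all genes, and the 10 genes together held 1234 ± 472.8 per 1000000 (SD, n = 3) in mild and 1759 ± 1706 (SD, n = 4) in severe EAE. The smallest exact p was 0.0857, for Tap2 (-216.7 nt). After scaling to the footprint nucleotides of each mouse, Tap2 was lower in severe than in mild EAE at an exact p of 0.05, where 415 of 6735 genes were.

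Stretches shared within a group describe how well the mice matched. By the rule of the study, a high-quality stretch is one of more than 1 nt that at least 2 mice of a group share. The 10 genes held 5 such stretches in naïve mice, in H2-K1 (2), H2-D1 (2) and Tap2 (1). They held 16 in mild EAE, in 9 genes (all but Tap1), and 7 in severe EAE, in H2-Aa (3), H2-K1 (2), H2-D1 (1) and Cd74 (1). Of the 16 stretches in mild EAE, only that of Tap2 was also footprinted in a naïve mouse, where 58.9% of 9603 such stretches over all genes tested were. The stretches in H2-Aa, H2-Ab1, H2-Eb1, Cd74 and Psmb8 could not be, since no naïve mouse had a footprint in these genes. The count therefore restates that absence and is a description. Of the 16, 15 were also footprinted in a severe EAE mouse, against 67.7% over all genes tested, and for 12 of the 15 that mouse was severe EAE 5 alone. Genes without a naïve footprint were tested only because EAE mice carried them. H2-Eb1 and Psmb8 were tested only because severe EAE 5 carried them as well. The count of 15 is therefore a description too. All 7 stretches of severe EAE included mouse 5, and none remained without it. Without each mild EAE mouse in turn the count fell to 5 to 9, and without each naïve mouse it was 1 to 4, with 1 when naïve 2 was left out and 2 when naïve 3 was.

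The footprints of these genes were mostly exonic in all groups. By midpoint, 79 of the 115 lay in coding sequence, 26 in 3′ UTRs, 2 in a 5′ UTR, 1 in an exon of a non-coding transcript of H2-K1 and 7 in the Tap2 intron. At least 1 end lay exactly on an exon boundary of some annotated transcript for 77 of them. The share over all genes was counted with another set of boundaries, so 77 cannot be set against it. With that set, and among exonic footprints in single genes, 64.1% over all genes had an end on a boundary. In these 10 genes 42 of 90 (46.7%) had one. The exonic share was 66.7%, 94.1% and 66.7% in naïve 1, 2 and 3, with 3, 17 and 3 footprints behind it. Mild EAE 3, 4 and 7 had 95.7%, 90.9% and 95.2%, and severe EAE 1, 5 and 6 had 100%, 96.3% and 100%. The naïve mean was 75.8% ± 15.8 (SD, n = 3) and the EAE mean 96.3% ± 3.41 (SD, n = 6), and naïve 2 overlapped the EAE mice. In each naïve mouse the only intronic member footprint was that of Tap2. Over all footprints in single genes the exonic share was 56.3% to 71.2% in naïve mice, 75.4% to 88.8% in mild EAE and 66.9% to 81.2% in severe EAE, and its part in the result was not tested.

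Further genes of antigen presentation were described from a list of 33, of which 22 had a footprint in some mouse and 15 in at least 3 mice. Of the 15 that were tested, 0 were called between all EAE and naïve mice in either direction, where 1 of 6735 genes was higher and 436 were lower. In mild EAE, where 5.24% of all genes tested were higher in every mouse than in every naïve mouse, 2 of the 15 were. These were Lgmn, an endosomal protease that processes antigens, with 126, 116 and 152 nt in the naïve mice and 750, 300 and 686 nt in mild EAE mice 3, 4 and 7, and Psme1, a subunit of the proteasome activator PA28, with 0, 128 and 0 nt against 136, 133 and 305 nt. Lgmn also had 607 nt in severe EAE 1 and 1388 nt in severe EAE 5. Among the others, Psme2, the partner of Psme1, and the class Ib gene H2-Q7 had no footprint in a naïve mouse and one in 2 mild EAE mice and 1 severe EAE mouse. For H2-Q7 that mouse was severe EAE 5, with 199 nt. A footprint of H2-K1 in severe EAE 5, also of 199 nt, had a footprinted copy in H2-Q7, so these values may not be separate. Ifi30, a thiol reductase of the endosome, had none in a naïve mouse and one in 1 mild and 2 severe EAE mice. The peptide-loading genes Tapbp, Calr, Canx and Pdia3, the protease gene Ctss, the proteasome gene Psmb10, the class Ib genes H2-T23 and H2-Q4, and the class I regulator Nlrc5 were footprinted in 1 to 3 naïve mice and in 1 to 3 mild EAE mice each, with overlapping groups. The master regulator of class II, Ciita, and the class II promoter factors Rfx5 and Rfxap had no footprint in any mouse, nor had the immunoproteasome gene Psmb9.

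Several markers of microglia and macrophages were, like the class II genes, footprinted in EAE mice alone. Of 13 microglia and macrophage markers, 12 had a footprint in some mouse, 3 of them in naïve mice and 9 in EAE mice alone. Of the 10 markers tested, 7 had no footprint in a naïve mouse, against 8.33% of all genes tested. The list covered 323 to 452 nt in naïve mice, 1443 to 3512 nt in mild EAE and 210 to 6316 nt in severe EAE. Per 1000000 footprint nucleotides of the mouse it held 145.5 to 206.7 in naïve mice, 1176 to 1934 in mild EAE and 1315 to 9565 in severe EAE, the highest value being that of severe EAE 2, which had 0 nt in the 10 MHC and antigen presentation genes. Aif1, which encodes the marker protein Iba1, had no footprint in any mouse. Of the 13 markers, 4 were higher in every mild EAE than in every naïve mouse, among them Csf1r, C1qa and C1qb, against 5.24% of all genes tested. Cx3cr1 and P2ry12, markers of resting microglia, did not share this pattern. Cx3cr1 had 172, 261 and 309 nt in the naïve mice and 0, 120 and 173 nt in mild EAE, and P2ry12 had 151, 0 and 143 nt against 0, 137 and 0 nt. None of 7 T cell markers, among them Cd3e, Cd4 and Cd8a, and none of 6 B cell and plasma cell markers, among them Cd79a, had a footprint in any mouse. Of 5 dendritic cell markers, Flt3 alone had footprints (in 2 naïve, 2 mild and 1 severe EAE mouse), and of 4 granulocyte and monocyte markers 1 had one, in naïve 2. The neuron list covered 3195 to 4528 nt in naïve mice, 1100 to 2600 nt in mild EAE and 0 to 5696 nt in severe EAE. Rbfox3, Syt1 and Tubb3 were lower in every mild EAE mouse than in every naïve mouse (3 of 6), where 354 of the 6735 genes tested were. Snap25, Nefl and Nefm overlapped. Per 1000000 footprint nucleotides the neuron list overlapped as well, with 1679 in mild EAE 3 against 1555 in naïve 2. The astrocyte list (5 of 5 genes footprinted) covered 1295 to 3198 nt in naïve mice and 2333 to 5136 nt in mild EAE, and the oligodendrocyte list (5 of 5) 1832 to 6568 nt and 2118 to 6223 nt, with no gene of either called. The part of cell composition in the values of the 10 genes was not tested.

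The pattern over mice of H2-K1, the gene footprinted in the most mice, was most like that of Capns1 (Pearson r = 0.97 of log2(covered nucleotides + 1) over the 10 mice), Gm4204 (0.95), Tmbim6 (0.95), 9030624G23Rik (0.87) and Grina (0.87), out of 6725 other genes. The 10 points share their list lengths, and these values are a description.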

How the data were processed

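The deposited files list, for each mouse, footprint coordinates on GRCm38 with no score, strand or count. Per the labels and the study's methods, the authors made them with bcl2fastq 2.19.0.316, fastp, assembly of reads into contigs with rnaSPAdes, spliced alignment with minimap2 2.17 and bedtools, and removed sites found in the mouse's own input or in pooled control IgG. Assembly and removal leave presence and extent but no read depth, and RNA abundant in the input can be lost.

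Footprints were joined to 55536 gene spans of GENCODE M21 (GRCm38 patch 6) with Python 3.11.15 and numpy 2.4.6. Covered nucleotides of each gene were compared over mice by exact permutation with Benjamini-Hochberg adjustment over genes footprinted in at least 3 mice. A gene was called at an exact p of at most 0.05, or, for 3 mice against 3, when groups did not overlap. Classes are those of the footprint midpoint. Sequences were read from the reference with samtools 1.23.1, copies were found with blastn 2.17.0, and TAG was counted on the strand of the gene only, over footprints in single genes. The functions were tested on simulated data. Figures were drawn with matplotlib 3.10.9.

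All 10 members are named. Of the wider antigen presentation list, genes footprinted in at least 3 mice are named, apart from an item that is not reported here, and Ciita, Rfx5, Rfxap and Psmb9 were named after their values were seen, as were single markers. For the member footprinted in the most mice, H2-K1, the 5 other genes with the highest Pearson r of log2(covered nucleotides + 1) are named. Members and lists were chosen with earlier results of these data known. Alternatives were scaling to each list, log2(covered nucleotides + 1), exons only, 1000 nt added to spans, footprints of at least 30 nt, single-gene footprints, the replicate block and leaving out each mouse, and, chosen after the data were seen, leaving out short lists together and leaving out footprints with genomic copies. Input and IgG libraries were not analysed here.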

Additional observations from a re-analysis of the deposited data

Results flagged for a closer look

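In 7 of the 10 genes, severe EAE 5 stood apart from the other severe EAE mice by more than the 95% limit of Dixon's test for 4 values. H2-Ab1 had 364 nt in that mouse, H2-Eb1 20 nt, B2m 264 nt, Tap2 220 nt and Psmb8 100 nt, each against 0 nt in the other severe EAE mice. Cd74 had 608 nt against 80 nt in the next mouse, and Tap1 had 157 nt against 24 nt. With normally distributed values, chance passes this limit in about 1 of 20 groups, but 3 values of 0 beside a positive one always pass it, as in the first 5 genes. Over all genes tested that were footprinted in severe EAE, severe EAE 5 passed it in 80.5%. Severe EAE 5 also had the longest list, 31870 footprints against 2670 in the next, and the part of list length in these values was not tested.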

How the results depend on the processing

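Between all EAE and naïve mice, 0 of the 10 genes were called under every setting, including each mouse left out in turn, except that 1 was called without severe EAE 2 and 6 (H2-Aa) and 1 without severe EAE 1, 2 and 6 (Cd74). In mild EAE against naïve mice the count was 3 and ranged from 3 to 6 over mice left out in turn, with 6 without mild EAE 4, where 18.2% of all genes were called in place of 5.24%. Scaled to the list, 1 gene (Tap2) was called between severe and mild EAE. Naïve mice had 2 shared stretches in place of 5 without footprints that have a copy, and 1 to 4 over mice left out. Mild EAE had 5 to 9 in place of 16. Severe EAE had 0 to 7 (0 without mouse 5, 2 without mouse 1) and 0 when 3 mice had to share them. The differences between EAE and naïve means that changed sign under some setting were those of H2-D1, B2m, Tap2 and H2-K1. That of H2-D1 became 216.9 after scaling. That of B2m became 0.27 on the log2 scale, 19.4 without severe EAE 2 and 6 and 46.5 without 1, 2 and 6, and ranged from -56.1 to 77.4 nt over mice left out. That of Tap2 became 30 and 81.8 nt in the same pair of settings, and that of H2-K1 ranged from -41.1 to 165.4 nt over mice left out. The cause was not tested. With the replicate number as a block (mice 1, 2 and 3), 0 genes were called, which was certain since 3 pairs cannot give an exact p below 0.25, and the number of genes footprinted per mouse differed by 1 in place of 2.86. Deviations of same-numbered mice correlated at 0.0019, 0.036 and -0.0097, which gave no sign of a pairing by number. For numbers 1 and 2 the EAE mice were severe EAE 1 and 2, whose lists were short. Low correlations there cannot settle whether the mice were paired. Read depth at a footprint, which the files do not give, limits every absence. For whole libraries, the study describes the sequencing depth as similar among its samples.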
